A study of Mus musculus with 2 samples.

Results

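Transcripts of 9 genes of the insulin-like growth factor (IGF) system were examined in single Sox1-GFP+ cells of mouse tail and mouse brain. The genes were the binding proteins Igfbp2, Igfbp3, Igfbp4, Igfbp5, Igfbp6 and Igfbp7, the ligand Igf1 and the receptors Igf1r and Igf2r, out of 19608 genes with a molecule in the files and 16301 found in at least 3 of the cells kept. They form a named list that was drawn up with measurements of the same libraries in view, so the tail and brain levels below are a description and carry no test.

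Both groups came from knock-in reporter mice in which GFP is made from the Sox1 locus, bred to wild-type animals of a CD1 or mixed CD1 and C3H background, and no other allele or treatment was given. Tissue was dissociated with trypsin and GFP+ cells were sorted, from postnatal tail for the first group and from adult brain for the second. Each group is 1 library made with the BD Rhapsody system, which tags every captured transcript with a molecular identifier so that PCR copies count as 1 molecule. With 1 library a group there is no replicate, and tissue, age and library cannot be told apart. Every interval is a 95% interval that covers counting error only.

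IGF1 and IGF2 are secreted growth factors that signal through the receptor tyrosine kinase made from Igf1r, while the product of Igf2r takes up IGF2 and sends it to lysosomes. The secreted IGF binding proteins hold the ligands outside the cell, where they lengthen their life and, depending on the tissue, block or aid their access to the receptor, and proteases that cut the binding proteins set the ligands free. IGFBP5 is the most conserved family member and binds extracellular matrix, IGFBP2 is a known product of astroglia and choroid plexus, and IGFBP7 binds IGFs weakly and is made in quantity by vessels.

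The promoters of the 4 binding protein genes whose patterns across cells differed most plainly are shown first, because Igfbp5 and Igfbp2 lie next to each other yet followed different cells in the brain, while Igfbp4 and Igfbp7 followed Col1a1 in the tail. Each line gives the 250 bases before the start of the gene on its own strand, 5′ to 3′, from RefSeq on GRCm38.p6. Capitals mark matches on either strand to TATAAA (the TATA box), to CCAAT (the CCAAT box), to GGGCGG (the GC box) or to TGANTCA (the AP-1 element). The windows are chr1:72874866-72875115 (minus strand) for Igfbp5, chr1:72824230-72824479 (plus) for Igfbp2, chr11:99040994-99041243 (plus) for Igfbp4 and chr5:77408046-77408295 (minus) for Igfbp7.
Igfbp5: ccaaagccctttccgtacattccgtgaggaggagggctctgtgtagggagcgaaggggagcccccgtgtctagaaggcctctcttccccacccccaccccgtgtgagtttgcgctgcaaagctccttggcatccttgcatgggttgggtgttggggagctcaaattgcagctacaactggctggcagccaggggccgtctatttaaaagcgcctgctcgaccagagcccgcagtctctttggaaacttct
Igfbp2: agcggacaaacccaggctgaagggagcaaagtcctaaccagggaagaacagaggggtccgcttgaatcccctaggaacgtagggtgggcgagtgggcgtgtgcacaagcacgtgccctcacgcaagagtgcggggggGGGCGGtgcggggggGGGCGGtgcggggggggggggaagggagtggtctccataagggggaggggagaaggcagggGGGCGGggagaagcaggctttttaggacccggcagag
Igfbp4: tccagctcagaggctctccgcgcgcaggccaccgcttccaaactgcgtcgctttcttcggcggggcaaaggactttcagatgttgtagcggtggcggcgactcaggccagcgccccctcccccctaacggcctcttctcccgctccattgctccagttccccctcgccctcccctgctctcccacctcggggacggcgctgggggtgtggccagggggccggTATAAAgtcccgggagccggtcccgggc
Igfbp7: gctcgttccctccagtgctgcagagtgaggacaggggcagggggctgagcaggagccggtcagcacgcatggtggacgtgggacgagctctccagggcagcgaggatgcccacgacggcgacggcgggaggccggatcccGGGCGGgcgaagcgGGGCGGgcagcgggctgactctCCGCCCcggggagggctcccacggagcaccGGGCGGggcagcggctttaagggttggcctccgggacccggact

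The Igfbp2 window held 3 copies of GGGCGG and the Igfbp7 window 4, the Igfbp4 window held 1 TATAAA from base -28 to base -23, and the Igfbp5 window held none of the 4 motifs as spelled. Over 32851 promoter windows of the same length, the GC box was found in 32.7%, the CCAAT box in 33.8%, the TATA box in 12.4% and the AP-1 element in 6.75%. GC content was 58.8% for Igfbp5, 67.2% for Igfbp2, 69.2% for Igfbp4 and 74% for Igfbp7, against a median of 52.4% over all windows. These matches describe letters in a window and say nothing of any factor.

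On chromosome 1 of GRCm38, Igfbp2 (ENSMUSG00000039323) runs from base 72824503 to 72852474 on the plus strand and Igfbp5 (ENSMUSG00000026185) from 72857932 to 72874884 on the minus strand. The pair point at each other across 5457 bases. Igfbp4 (ENSMUSG00000017493) and Igfbp3 (ENSMUSG00000020427) lie on chromosome 11, Igfbp3 beside the liver gene Igfbp1, and the other members lie on chromosomes 5, 7, 10, 15 and 17. Igf2r is overlapped over 28354 bases by the antisense RNA gene Airn. The use of strand in the counting is not given in the sources used here, so molecules of the 2 genes in that stretch may not be told apart.

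The tail library held 1964 kept cells with a median of 1282.5 molecules and the brain library 7988 with a median of 696, and 18 barcodes were found among the kept cells of both. Levels are given as CPM, the molecules of a gene divided by all molecules of the cells in question and scaled as counts per 1e+06. Rescaling the libraries by edgeR's TMM factors shifts all ratios of tail to brain by a log2 value of -0.36. Because the counts are molecules at transcript ends, levels are compared between cells for the same gene and not between genes, except as shares of molecules counted.

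Igfbp5 was the member with by far the most molecules. The tail library held 29731 molecules of it, 10554 CPM (10434 to 10674), against 2124 in the brain library at 331 CPM (317 to 345), a ratio of 31.9 (30.5 to 33.4). In the tail it made up 92.0% of all molecules of the 6 binding protein genes, and in the brain 62.3%. The share of Igfbp2 was 3.51% of tail and 32.1% of brain binding protein molecules. Summed, the 6 genes came to 11476 CPM of tail molecules (1.15%) and 531 CPM of brain molecules.

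**Figure D1:**
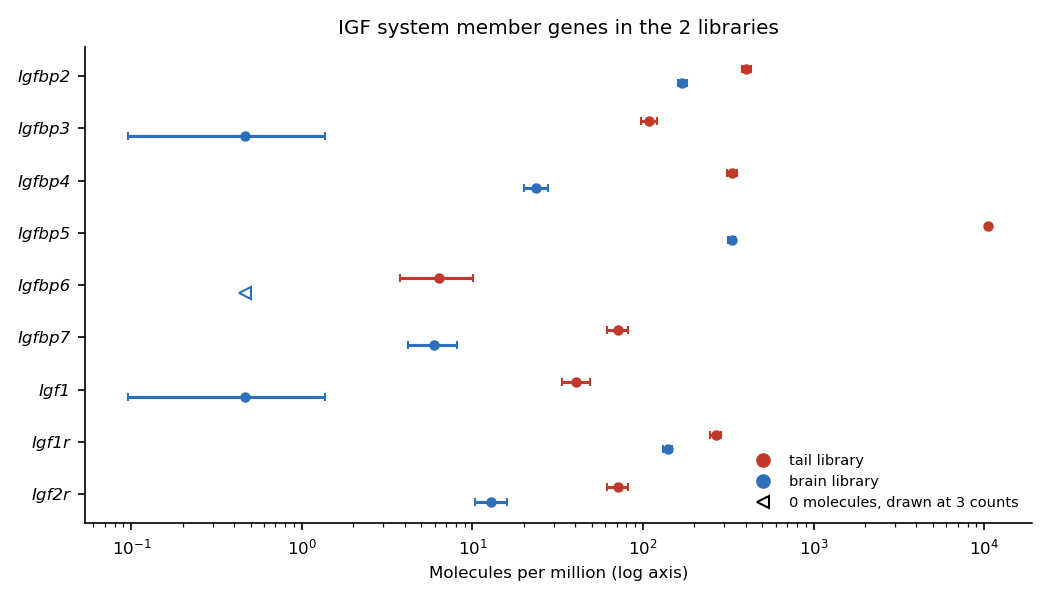
Level of each of the 9 genes in the tail (red) and brain (blue) libraries, in CPM on a log axis, with exact Poisson 95% intervals and 1 library a group. Every red point lies to the right of its blue partner. The ratio is smallest for Igf1r, at 267 against 139, and the tail level is highest for Igfbp5, at 10554 against 331. The open triangle marks 0 Igfbp6 molecules in the brain, drawn at 3 counts.

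The other binding protein genes among the 9 were also higher in the tail, by very unequal amounts. Igfbp2 stood at 403 CPM (380 to 427) in the tail and 170 (160 to 181) in the brain, a ratio of 2.37 (2.18 to 2.58). Igfbp4, whose product is cut by a pappalysin protease, stood at 333 CPM and 23.7 CPM, a ratio of 14.1 (11.8 to 16.8). Igfbp7 stood at 71.0 CPM and 5.91 CPM, a ratio of 12.0 (8.45 to 17.5). Igfbp3, which carries most IGF in blood, and Igfbp6, which prefers IGF2, were close to absent from the brain library. Igfbp3 had 306 tail molecules and 3 brain molecules, a ratio of 233 with an interval from 78.8 to 1134. Igfbp6 had 18 tail molecules and 0 brain molecules, at least 13.7-fold higher in the tail when the brain count is set to 3 and the error of the tail count is left aside, where the exact interval of the ratio starts at 10.0.

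The ligand and the receptors divided in the same uneven way. Igf1 had 114 tail molecules (40.5 CPM) and 3 brain molecules (0.467 CPM), a ratio of 86.7 (28.9 to 426). Igf2r stood at 71.0 CPM and 12.9 CPM, a ratio of 5.50 (4.23 to 7.19). Igf1r was the member nearest to equal, at 267 CPM (248 to 286) against 139 CPM (130 to 149), a ratio of 1.91 (1.73 to 2.11).

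Of the 9 genes, 8 reached 50 molecules over both libraries, and in 6 of them the whole interval of the ratio lay above 4, with none past 4-fold toward the brain. All 8 ratios were above 1, as were 63.6% of all genes tested. Among all 11345 genes with 50 molecules, 6.33% passed in the tail direction and 4.66% in the brain direction, a split of 718 to 529 that became 576 to 663 under TMM scaling. Since the list was drawn from such levels, nothing is read from the count. The 6 were Igfbp3, Igfbp4, Igfbp5, Igfbp7, Igf1 and Igf2r. Under TMM scaling 5 passed, the interval of Igf2r then reaching down to 3.30. Without the cells that held 2 or more molecules of Col1a1, Krt5 or Tmem212 in either library, 4 passed, which were Igfbp3, Igfbp4, Igfbp5 and Igfbp7. Igf1 at 11.7 (2.33 to 113) and Igf2r at 3.92 (2.88 to 5.34) no longer did, and the ratio of Igfbp4 was 7.08 in place of 14.1.

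Igfbp5 was found in most tail cells, and each other member in a smaller share of them. At a depth of 400 molecules drawn from each cell, at least 1 Igfbp5 molecule was held by 61.5% of the tail's 1945 cells (59.3 to 63.7) and by 9.04% of the brain's 7270 (8.39 to 9.72). Without thinning the shares were 70.2% and 14.8%. The median tail cell held 8 molecules, the upper quartile began at 26 and the richest cell held 118. Cells with 10 or more molecules made up 47.4% of the tail library and 0.138% of the brain library. As a gauge of free RNA, Igfbp5 was looked for in brain cells picked by macrophage and microglia markers and in tail cells with Krt5. At 400 molecules 0 of 41 of the first, with an exact upper limit of 8.60%, and 1 of 81 of the second (1.23%) held a molecule. Without thinning 1 of 42 (2.38%, at a median depth of 631.5 molecules) and 14 of 81 did (17.3%, at a median depth of 2111). The tail share of Igfbp5 lay above that of tail Krt5 cells at both treatments. For the brain, the upper limit of 8.60% lies within the interval of the library share, 8.39 to 9.72. The gauge therefore cannot separate those brain shares at 400 molecules.

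At the same thinned depth, Igfbp2 was found in 14.4% of tail and 5.64% of brain cells, Igfbp4 in 8.89% and 0.812%, Igfbp3 in 4.16% and 0%, Igfbp7 in 1.34% and 0.179%, Igf1 in 0.566% and 0.0275%, and Igf2r in 2.37% and 0.495%. For Igfbp3 in the brain, 0 of 7270 thinned cells allows a share of up to 0.0413% at 3 counts, with an exact upper limit of 0.0507%, and without thinning 3 brain cells held a molecule. For Igf1r the share was 10.7% in the tail (9.36 to 12.2) and 5.27% in the brain (4.77 to 5.81). Without thinning, 32.7% of tail cells held Igfbp2, 28.7% held Igf1r and 19.9% held Igfbp4. At the thinned depth, Igf1r was found in 3 of 41 brain cells picked by macrophage and microglia markers (7.32%). On so few cells, the brain share of Igf1r cannot be placed above or below that of this cell kind. For 8 of the 9 genes the tail interval lay wholly above that of the brain, Igfbp6 being the exception at 0.103% and 0%. Among the 11345 genes with 50 molecules the tail interval lay above in 26.6% and the brain interval above in 13.8%, and since the list was drawn from levels in these libraries nothing is read from the count.

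To see which cells carried the transcripts, cells were called marked when they held 2 or more molecules of a marker: 1500015O10Rik, which encodes the secreted peptide precursor augurin, Tmem212 of multiciliated ependymal cells, Col1a1 of collagen-making cells, Krt5 of basal keratinocytes, Stmn2 of young and mature neurons, Slc1a3, the glutamate transporter GLAST of astroglia, or Top2a of cycling cells. A cell can be in more than 1 set. In the tail the sets held 738, 37, 177, 81, 67, 408 and 103 cells in that order and 743 cells had none of the markers. In the brain they held 10, 53, 36, 0, 560, 4891 and 198 cells, with 2374 unmarked. Sets of fewer than 20 cells were not compared.

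The markers were checked against lists of other genes of the same cell kind, counting those at least 2-fold higher in the set. In the tail 8 of 9 ependymal genes followed Tmem212, 7 of 7 fibroblast genes Col1a1, 7 of 7 keratinocyte genes Krt5, 7 of 7 neuronal genes Stmn2 and 7 of 7 cycling genes Top2a. No list was set for 1500015O10Rik, and 6 of 10 ependymal genes followed it, at 1781 CPM against 522 in other tail cells. Genes of other kinds followed some markers too. With Top2a in the tail went 5 of 8 fibroblast genes, at 19630 CPM against 9357, and 4 of 8 keratinocyte genes, and with Krt5 went 4 of 8 cycling genes. In the brain 8 of 8 cycling genes followed Stmn2, at 1417 CPM against 379, and 3 of 8 neuronal genes followed Top2a. Tail cells with Slc1a3 did not carry the astroglial list: 2 of 7 genes followed, the list summed to 629 CPM against 282 in other cells, and Gpr37l1 was at 0. In the brain 7 of 7 astroglial genes followed Slc1a3, at 26825 CPM against 7023. Tail Slc1a3 cells are therefore named by the marker alone, and 253 of the 408 also carried 1500015O10Rik. In the brain, 27 of the 36 Col1a1 cells also carried Slc1a3, and that set's astroglial sum was 29919 CPM.

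In the tail, Igfbp5 was concentrated in cells with 1500015O10Rik or Slc1a3. Its level was 18617 CPM (18355 to 18882) in 1500015O10Rik cells and 21293 CPM (20917 to 21674) in Slc1a3 cells. Unmarked cells had 6723 CPM, Tmem212 cells 6680, Top2a cells 4640 and Col1a1 cells 1678. At the low end were Stmn2 cells with 251 CPM (171 to 354) and Krt5 cells with 142 CPM (92.9 to 208), and the intervals of these last sets overlap. From the highest set to the lowest, the levels fell into a high pair, a middle group and a low pair. The 1500015O10Rik set held 64.7% of tail Igfbp5 molecules with 36.7% of all molecules, and was 3.17-fold (3.09 to 3.24) above the other tail cells. At 400 molecules a cell, 89.4% of 1500015O10Rik cells and 93.8% of Slc1a3 cells held Igfbp5, against 64.9% of Tmem212, 47.1% of unmarked, 46.6% of Top2a, 26.6% of Col1a1, 10.4% of Stmn2 and 1.23% of Krt5 cells.

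**Figure D2:**
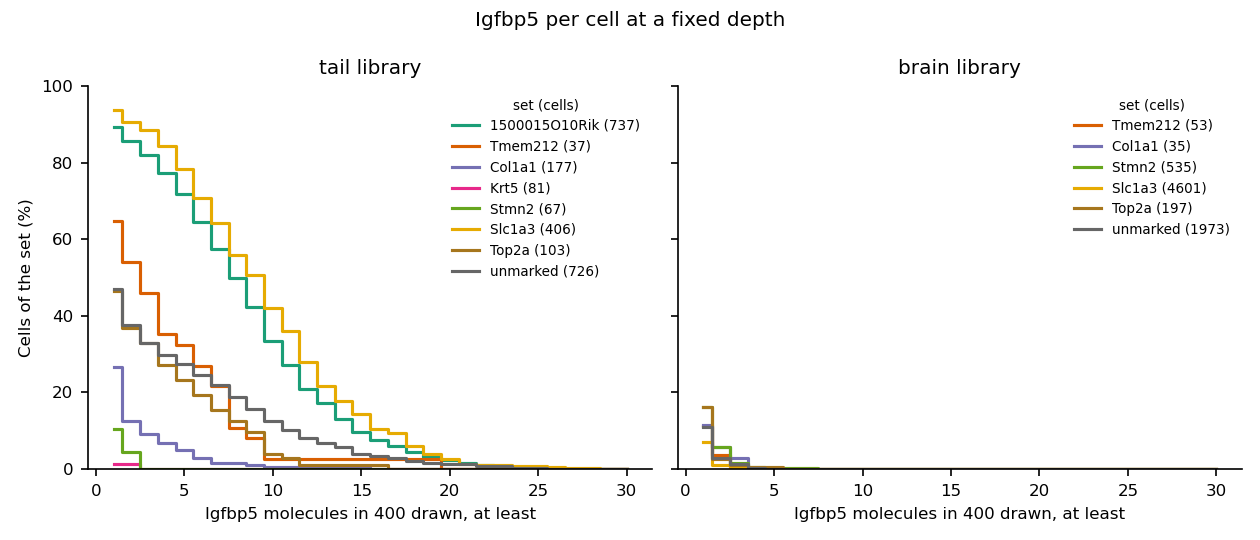
Share of cells (vertical, %) with at least a given number of Igfbp5 molecules among 400 drawn from each cell (horizontal), by marker set, for the tail (left) and the brain (right). In the tail, at least 10 molecules were found in 42.1% of Slc1a3 cells and 33.4% of 1500015O10Rik cells, while every brain curve starts below 20% of cells and ends within a few molecules.

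In the brain the same gene followed other cells. Igfbp5 stood at 616 CPM (546 to 692) in Stmn2 cells, 609 (528 to 699) in Top2a cells, 472 (270 to 767) in Col1a1 cells, 467 in unmarked cells, 386 in Tmem212 cells and 233 (218 to 248) in Slc1a3 cells. The Stmn2, Top2a and Col1a1 sets do not differ beyond their intervals, and Slc1a3 cells were the lowest. Leaving out cells that carried both markers of a pair, Stmn2 cells were 2.75-fold (2.39 to 3.15) above Slc1a3 cells and Top2a cells 2.45-fold (2.06 to 2.91). Stmn2 cells, in the low pair of the tail, were thus among the higher sets of the brain, and Slc1a3 cells went from the highest level of the tail sets to the lowest of the brain sets.

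The same mark went with different levels in the 2 libraries. In Slc1a3 cells Igfbp5 was 91.5-fold (85.7 to 97.8) higher in the tail, in Tmem212 cells 17.3-fold (11.9 to 26.1), in unmarked cells 14.4-fold (13.3 to 15.6), in Top2a cells 7.62-fold (6.56 to 8.88) and in Col1a1 cells 3.55-fold (2.17 to 6.25). In Stmn2 cells the direction was the other one, with 251 CPM in tail cells and 616 in brain cells, a ratio of 0.407 (0.273 to 0.588). Counting members with 50 molecules over both sets, beyond 4-fold toward the tail lay 3 of 6 between the Slc1a3 sets (Igfbp3, Igfbp4 and Igfbp5), where 5.15% of 8739 genes did, 3 of 4 between the Top2a sets (Igfbp2, Igfbp4 and Igfbp5), where 4.64% of 2327 did, and 0 of 2 between the Stmn2 sets, where 1.64% of 2318 did. Between the Col1a1 sets 0 of 8 did, where 4.25% of 1411 did, and between unmarked cells 1 of 6 (Igfbp5), where 2.67% of 7566 did. Between the Tmem212 sets Igfbp5 was the 1 member with enough molecules and it passed, where 0.845% of 355 did.

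Igfbp2 went with Igfbp5 in the tail and apart from it in the brain. Tail levels were 716 CPM (665 to 770) in 1500015O10Rik cells and 721 (654 to 794) in Slc1a3 cells, 464 in Tmem212, 376 in Top2a, 248 in unmarked, 144 in Col1a1, 76.6 in Krt5 and 15.7 in Stmn2 cells. The first pair of sets share 253 cells, and their intervals overlap. Outside the shared cells, Igfbp2 was at 479 CPM in Slc1a3 cells and 639 in 1500015O10Rik cells, a ratio of 0.750 (0.595 to 0.937). In the brain, Slc1a3 cells held 78.9% of Igfbp2 molecules and 64.1% of all molecules, at 210 CPM (196 to 224), while Stmn2 cells had 17.5 CPM from 8 molecules and Top2a cells 6.03 CPM from 2. Brain Stmn2 cells without Slc1a3 were at 0.0561 (0.0182 to 0.131) of the level in Slc1a3 cells without Stmn2, where Igfbp5 was at 2.75. In brain cells of macrophage and microglia markers 0 of 42 held Igfbp2, which allows a share of up to 7.14%.

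Cell by cell the pair showed the same split. At 400 molecules, Igfbp2 was found in 19.6% of tail cells with Igfbp5 and 6.15% of tail cells without it. In the brain it was found in 2.44% of cells with Igfbp5 and 5.96% of cells without. The 2 genes are neighbours on chromosome 1. Since the Igfbp5 window printed above had no match to the 4 motifs as spelled, none could be shared. Nothing about the split is read from the promoters.

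**Figure D3:**
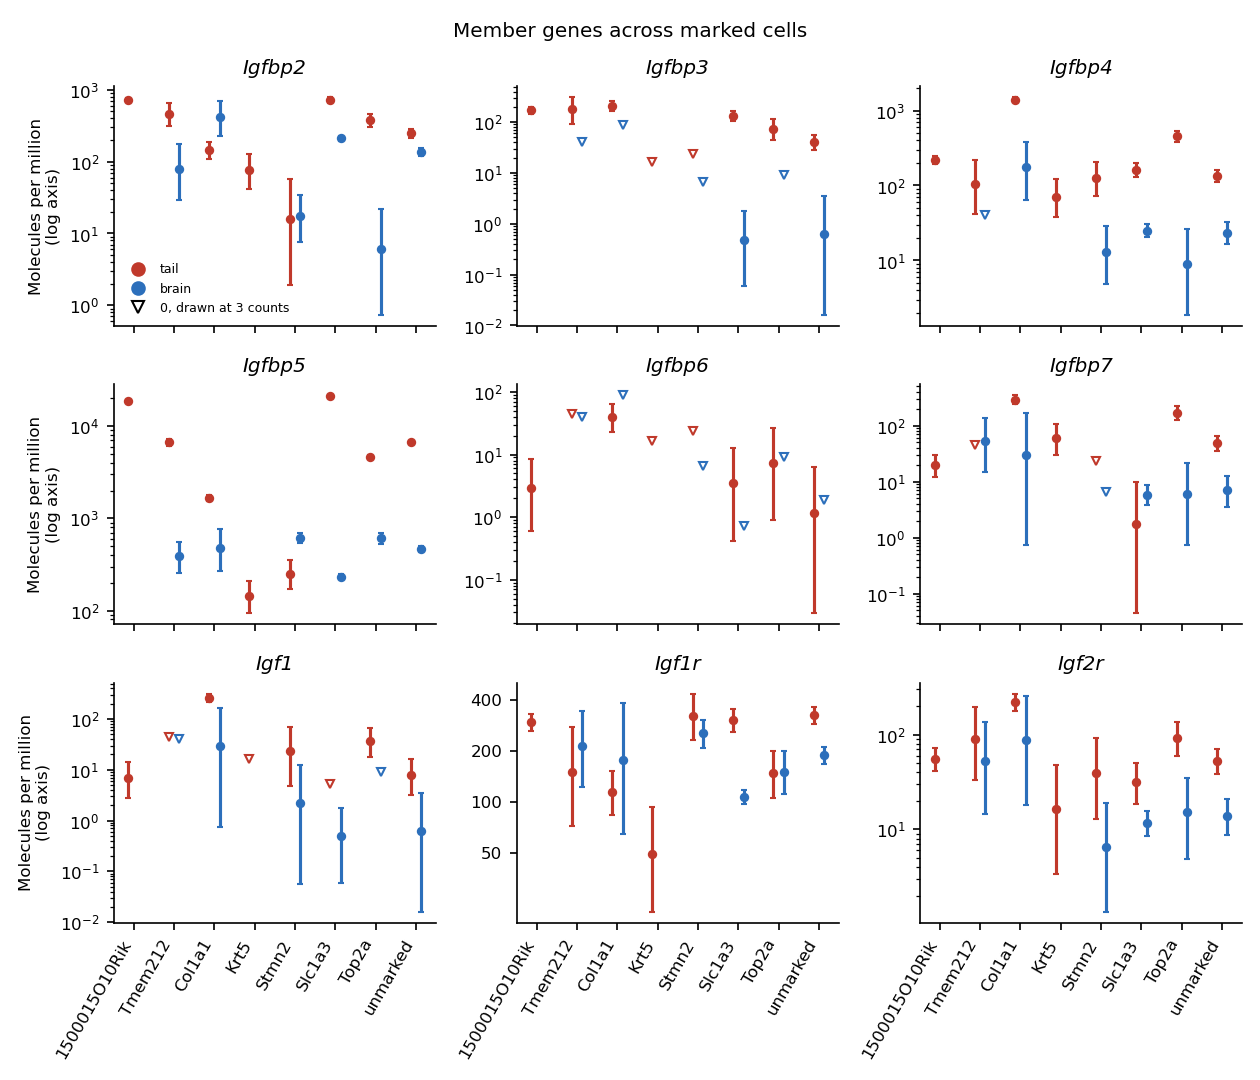
Level of each gene (CPM, log axes that differ between panels) in cells marked by each of 7 genes and in unmarked cells, for the tail (red) and the brain (blue), with exact Poisson 95% intervals. Sets under 20 cells are left out and open triangles stand for 0 molecules, drawn at 3 counts. Igfbp4, Igfbp7, Igf1 and Igf2r peak in tail Col1a1 cells, at 1398, 290, 263 and 221, where Igfbp5 is low at 1678 against 18617 in 1500015O10Rik cells.

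Col1a1 cells of the tail carried a different set of members. They held 14.3% of tail molecules but 93.0% of Igf1, 88.9% of Igfbp6, 60.1% of Igfbp4, 58.5% of Igfbp7 and 44.5% of Igf2r molecules. Igf1 was at 263 CPM from 106 molecules there and at 3.31 CPM in all other tail cells, a ratio of 79.2 (38.8 to 188). In the 144 Col1a1 cells with no other marker the ratio was 28.8 (18.4 to 46.4), with the remaining Col1a1 cells counted among the other cells. Of those, the 20 with Top2a held 9 Igf1 molecules, so the values 79.2 and 28.8 are not measured against the same cells. Igfbp4 was at 1398 CPM against 155, a ratio of 9.02 (7.90 to 10.3), with up to 23 molecules in a cell. Igfbp7 was 8.43-fold (6.31 to 11.3) and Igf2r 4.80-fold (3.59 to 6.40) higher than in the other cells. The same cells were low in Igfbp5, at 0.139 (0.129 to 0.150) of the other cells, and in Igfbp2, at 0.322 (0.243 to 0.419). Igfbp6, with 16 of its 18 molecules in Col1a1 cells, was 47.8-fold higher with an interval from 11.2 to 429, and had too few molecules for the rule below.

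Igfbp3 was shared by several kinds of tail cells. It stood at 211 CPM (168 to 260) in Col1a1, 180 (92.8 to 314) in Tmem212, 171 (147 to 198) in 1500015O10Rik and 132 (104 to 166) in Slc1a3 cells, and at 73.7 in Top2a and 41.1 in unmarked cells. Among the first 4 sets only the intervals of Col1a1 and Slc1a3 cells miss each other, but the 1500015O10Rik and Slc1a3 sets share 253 cells. Outside the shared cells, Igfbp3 was at 69.1 CPM in Slc1a3 cells and 174 in 1500015O10Rik cells, a ratio of 0.398 (0.211 to 0.695). No molecule was found in the 81 Krt5 cells or the 67 Stmn2 cells. With 3 counts set in their place, the level was at least 7.08-fold lower in Krt5 cells and at least 4.84-fold lower in Stmn2 cells than in the rest of the library, where the exact intervals start at 5.72 and 3.92.

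Igf1r was close to level across several kinds of cell. In the tail it lay between 295 and 325 CPM in unmarked, Stmn2, Slc1a3 and 1500015O10Rik cells, whose intervals overlap, at 150 in Tmem212, 147 in Top2a and 114 in Col1a1 cells, and at 49.2 CPM (22.5 to 93.4) in Krt5 cells. In the brain, Stmn2 cells without Slc1a3 were 2.39-fold (1.91 to 2.96) above Slc1a3 cells without Stmn2, at 251 against 105 CPM. Between the libraries, Igf1r in Stmn2 cells was 321 CPM in the tail and 253 in the brain, a ratio of 1.27 whose interval of 0.865 to 1.82 takes in equality. In Top2a cells the ratio was 0.977 (0.628 to 1.51) and in Slc1a3 cells 2.85 (2.38 to 3.40).

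Counting a gene when it had 20 molecules in the library and its whole interval lay beyond 2-fold of the other cells, 8 members could be read in the tail and 6 in the brain. In the tail, Col1a1 cells had 4 members higher and 2 lower, where 4.98% and 8.10% of all 11066 genes passed. Cells with 1500015O10Rik had 2 higher (Igfbp2 and Igfbp5) and 2 lower (Igfbp7 and Igf1), against 2.60% and 6.03%. In the 423 of them with no other marker, Igfbp2 was at 1.90 (1.67 to 2.16) of all other tail cells, which ends its call. Igfbp5 was at 2.20 (2.15 to 2.26). The other cells here include 1500015O10Rik cells with a second marker, among them the 253 with Slc1a3, at 854 CPM of Igfbp2. The lost call therefore does not show that it rested on second markers. Krt5 cells had 0 higher and 6 lower, against 3.08% and 6.57%, and Stmn2 cells 0 and 4, against 3.89% and 2.92%. Slc1a3 cells had 1 higher and 2 lower, against 0.696% and 3.11%, Top2a cells 0 and 1 (Igfbp5), against 2.25% and 1.38%, and Tmem212 cells 0 and 0, against 2.75% and 0.624%.

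In the brain few members passed. Tmem212 cells had 1 higher, Igfbp7 with 4 molecules, and none lower, where 5.63% of 11659 genes were higher and 2.29% lower. Col1a1 cells had 1 higher, Igfbp4 with 6 molecules, and none lower, where 0.437% of genes were higher and 0.240% lower. Both rest on few molecules. With 1 or more Col1a1 molecules as the mark, Igfbp4 was at 2.90 (1.72 to 4.66) in 379 cells, which ends its call, beside 7.75 (2.80 to 17.3) at 2 or more, and with 3 or more Tmem212 molecules Igfbp7 was at 9.24 (1.82 to 29.3), which ends that call. Stmn2 and Top2a cells each had 1 lower, Igfbp2, where 8.51% and 8.02% of genes were lower, and none higher, where 8.10% and 8.88% were. Slc1a3 cells had none in either direction, against 6.72% higher and 16.9% lower.

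In 2 tail sets, cells with Top2a held less Igfbp5 than those without. The 1500015O10Rik cells that also carried Top2a had 8766 CPM in 48 cells against 19729 CPM in 690 cells without, a ratio of 0.444 (0.415 to 0.475). Col1a1 cells with Top2a had 786 CPM in 20 cells against 1881 in 157, a ratio of 0.418 (0.314 to 0.546), and Igf1 there was at 0.406 (0.180 to 0.803), Igfbp3 at 0.455 (0.190 to 0.941), Igfbp4 at 0.620 (0.476 to 0.798) and Igfbp7 at 0.500 (0.250 to 0.911). Igfbp2 did not differ beyond its interval between 1500015O10Rik cells with and without Top2a, at 1.09 (0.853 to 1.37), and Igfbp7 was higher with Top2a, at 3.80 (1.20 to 10.5) from 6 and 14 molecules. In Col1a1 cells with Top2a only 1 Igfbp2 molecule was counted, against 57 in those without, a ratio of 0.0768 (0.00191 to 0.445). Cells with Top2a were deeper than the tail library as a whole, with a median of 2278 molecules, and the effect of depth on these ratios was not tested.

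Within the main Igfbp5-bearing cells, Slc1a3 went with a further step. Cells with both 1500015O10Rik and Slc1a3 had 22504 CPM of Igfbp5. Those with 1500015O10Rik and not Slc1a3 had 16437 CPM, and those with Slc1a3 and not 1500015O10Rik had 19073 CPM. The first exceeded the second 1.37-fold (1.33 to 1.41) for Igfbp5 and 1.34-fold (1.15 to 1.55) for Igfbp2, and had 0.598 (0.435 to 0.811) of its Igfbp4. Igfbp3 was 2.42-fold (1.34 to 4.67) higher in cells with both than in cells with Slc1a3 and not 1500015O10Rik. The members thus differed in direction between these groups. Cells with other markers were not left out of the groups, and 12 of the 1500015O10Rik cells also carried Col1a1.

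Igfbp7 pointed to rare cells as well. The 10 tail cells picked by endothelial markers held 59 of the 200 tail molecules, 2581 CPM (1965 to 3329), and none of their molecules was Igfbp5, Igfbp2 or Igf1. In the brain, 9 cells picked by mural markers held 7 of the 38 molecules, 1108 CPM (445 to 2282). These cell kinds were looked at after their values were seen.

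The rest of the IGF system was taken from a list of 52 symbols, with old and new names for the CCN family, of which 44 were in the files and 32 had 50 molecules. The whole interval lay beyond 4-fold in 9 toward the tail and 1 toward the brain, beside 6.33% and 4.66% of all genes, and the median log2 ratio was 0.47 without Igf2, and 0.67 with Igf2 at its 3-count value, against 0.28 over all genes tested. The ligand gene Igf2, an imprinted gene, had 120 tail molecules (42.6 CPM) and 0 brain molecules, at least 91.2-fold higher with the brain set to 3 counts and the error of the tail count left aside, where the exact interval of the ratio starts at 73.1. Igf2 was found in 1500015O10Rik cells at 63.9 CPM, Slc1a3 cells at 62.7 and Col1a1 cells at 69.4. Unlike Igf1 it was not held mainly by the Col1a1 cells, which had 23.3% of its molecules beside 14.3% of all tail molecules.

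**Figure D4:**
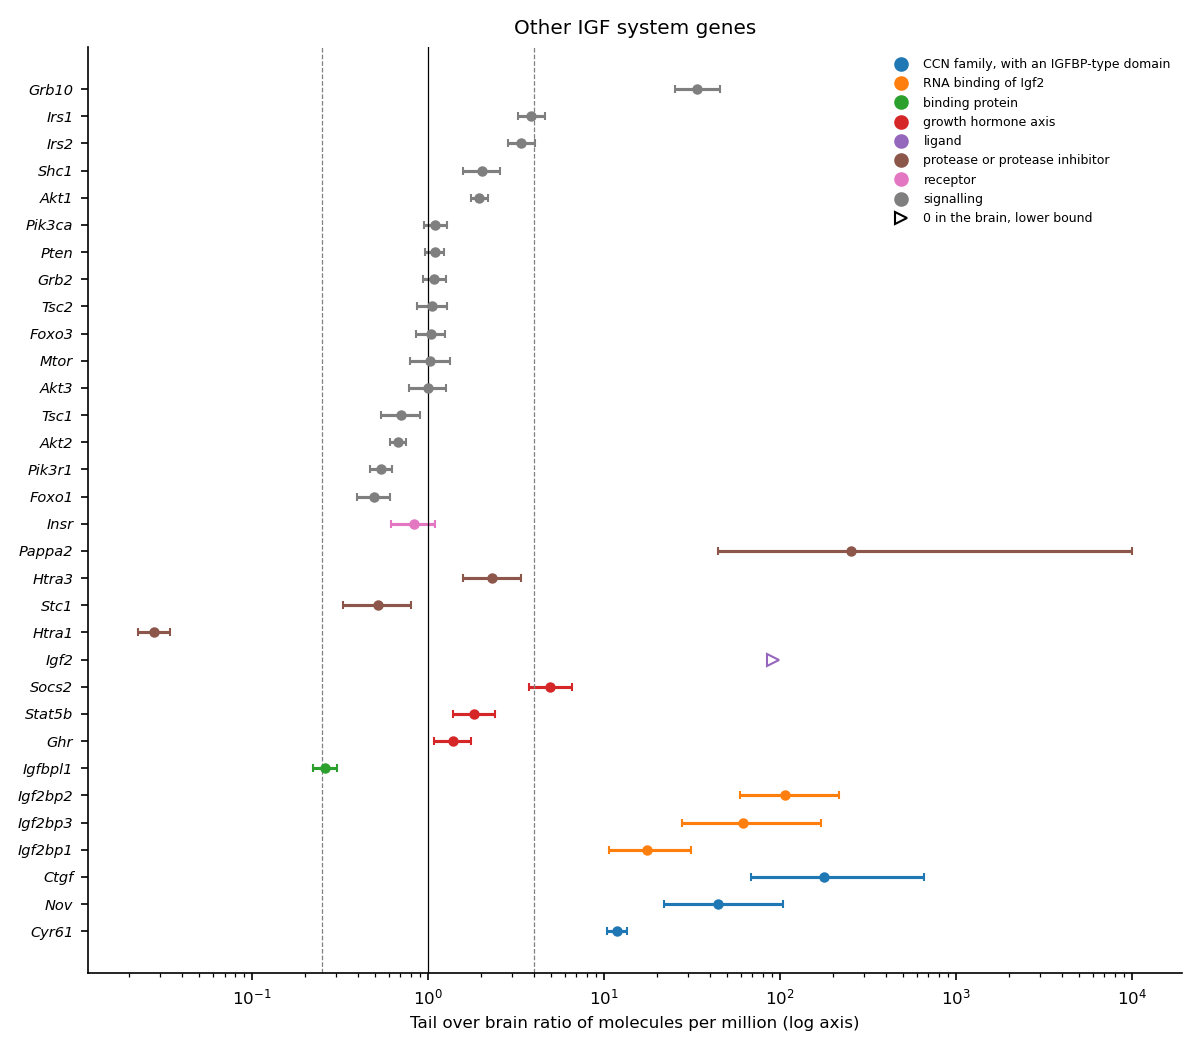
Tail over brain ratio of CPM on a log axis for the 32 other IGF system genes with 50 molecules, coloured by role, with exact 95% intervals; dashed lines mark 4-fold either way. Grb10, Pappa2, the 3 Igf2bp genes, Cyr61, Ctgf and Nov lie right of the upper line with Igf2, whose open triangle at 91.2 has 3 counts in place of 0 brain molecules and no interval, Htra1 lies left of the lower line at 0.0280, and most signalling genes lie near 1.

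Genes that act on the ligands and binding proteins stood far apart, with a median log2 ratio of 0.14 over the 4 proteases and inhibitors with 50 molecules. Pappa2, a protease that cuts IGFBP5 and IGFBP3, had 111 tail molecules and 1 brain molecule, a ratio of 253 with an interval from 44.5 to 10087. Htra1, a secreted serine protease that can cut binding proteins, was the 1 gene toward the brain, at 31.9 CPM of tail and 1143 CPM of brain molecules, a ratio of 0.0280 (0.0225 to 0.0344). The other two were nearer to even, the protease gene Htra3 at 2.32 (1.59 to 3.38) and Stc1, which encodes a pappalysin inhibitor, at 0.522 (0.330 to 0.798). Igfbpl1, a gene related to the binding proteins, was higher in the brain, with 182 tail molecules (64.6 CPM) and 1591 brain molecules (248 CPM), a ratio of 0.261 (0.223 to 0.304). All 3 genes for the RNA-binding proteins that bind Igf2 mRNA passed, Igf2bp1 at a ratio of 17.7, Igf2bp2 at 107 and Igf2bp3 at 62.0. The CCN genes Cyr61, Ctgf and Nov, whose products share a domain with the binding proteins, were at 11.8, 178 and 44.5.

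Receptor signalling genes were closer to even. Of 16 with 50 molecules, 1 passed, the adaptor Grb10, which damps insulin and IGF receptor signals, at 263 CPM against 7.78 CPM, a ratio of 33.8 (25.4 to 46.0). The median log2 ratio of the 16 was 0.10. The insulin receptor gene Insr stood at 23.8 CPM in tail cells and 28.6 CPM in brain cells, a ratio of 0.830 whose interval runs from 0.618 to above 1.

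Genes whose level followed that of a member were sought over 14 sets of cells, the marked and unmarked sets of both libraries, by Pearson's r of log2 levels with 20 CPM added. The sets share cells, libraries and depth, so r is a description. Igfbp5 was most like Cybrd1 (r = 0.956), Necab1 (0.927) and Ntn1 (0.927), and Igfbp2 most like Notch2 (0.934), Pdpn (0.924) and Nek8 (0.908). Igfbp4 was most like Peg3, Cdkn1c and Lgals1, at 0.928 to 0.936, and Igfbp3 most like Ifitm1, Olfml3 and Ndnf, at 0.945 to 0.951. Igfbp7 was most like Crtap, Arpc1b and Capn6, Igf1r most like Srgap3, Stox2 and Gprasp2, and Igf2r most like Sec13, Col5a2 and Lats2, at 0.877 to 0.913 in all. Of these 21 pairs, 13 were found again with 5 CPM added and 8 after the mean of each library was taken away. The latter were all genes named for Igfbp3, Crtap and Arpc1b for Igfbp7, Cybrd1 for Igfbp5, Srgap3 for Igf1r and Sec13 for Igf2r. No gene named for Igfbp2 or Igfbp4 was among them.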

How the data were processed

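Transcripts of sorted Sox1-GFP+ cells had been counted in 1 tail and 1 brain library. The deposited files hold molecule counts that, per the file headers, the authors made with version 1.10.1 of the BD Rhapsody WTA pipeline on GRCm38 with GENCODE vM19. The study's methods name another version of it. Counts after error correction were analysed, with those before it as an alternative. A cell was kept if its genes numbered over 200 and below 4000 and its mitochondrial share was below 40%, which retained 1964 of 2469 tail and 7988 of 12111 brain barcodes. Scrublet in scanpy 1.11.5 called 5 and 76 doublets, which were kept.

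Molecules were summed over cells and divided by their total. Levels have exact Poisson intervals, shares of cells exact Clopper-Pearson intervals and ratios conditional exact binomial intervals, and a count of 0 was taken to allow 3 counts. With 1 library per group no test was run. Shares of cells were taken after each cell was thinned to 400 molecules, which left out 19 tail and 718 brain cells. TMM factors came from edgeR 4.0.16. Ratio and interval code was tested on simulated data. Gene positions come from GENCODE vM21 on GRCm38.

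The members, marker sets and gene lists were chosen with earlier results of these data known. Genes named are the 9 members, the 7 markers, Igf2, Insr and each other IGF gene past 4-fold, and the 3 genes most like each member with 200 or more molecules. Any other was named after its values were seen.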

Additional observations from a re-analysis of the deposited data

Results flagged for a closer look

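In 5 cases a gene lay on opposite sides of the other cells of its library in the tail and in the brain, with both intervals clear of 1. The share of all genes that do so was not taken, so nothing is read from the count. The difference between the libraries was not tested, since each is 1 sample. Igfbp5 in Stmn2 cells was at 0.0227 (0.0155 to 0.0320) of the other tail cells and at 1.99 (1.75 to 2.26) of the other brain cells. Igfbp5 in Slc1a3 cells was at 2.73 (2.67 to 2.79) in the tail and 0.461 (0.423 to 0.502) in the brain. Igfbp5 in Top2a cells was at 0.415 (0.392 to 0.439) in the tail and 1.93 (1.66 to 2.23) in the brain. The cells behind a mark were not alike in the 2 libraries: 2 of 7 astroglial genes followed Slc1a3 in the tail and 7 of 7 in the brain, and among Top2a cells 48 of 103 also carried 1500015O10Rik in the tail while 44 of 198 also carried Stmn2 in the brain. The part of this in the Igfbp5 ratios was not tested.

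Igfbp2 in Col1a1 cells was at 0.322 (0.243 to 0.419) of the other cells in the tail and at 2.44 (1.33 to 4.12) in the brain, where the set had 14 Igfbp2 molecules and 27 of its 36 cells also carried Slc1a3. In the 9 brain cells with Col1a1 and no other marker the ratio to all other brain cells, those with Col1a1 and Slc1a3 included, was 1.64 (0.199 to 5.94). Igfbp7 in Tmem212 cells was at 0 in the tail, with an interval up to 0.767 over 37 cells, and at 9.94 (2.56 to 27.9) in the brain, from 4 molecules in 53 cells.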

How the results depend on the processing

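No paired analysis was possible because each group holds 1 library, and for the same reason no replicate could be left out. Of 304 values for single genes recomputed under other settings, 249 stayed within their counting interval, 55 moved and 0 changed direction. All 8 members with brain molecules kept a tail over brain ratio above 1 under each of 10 alternatives: Igfbp5 ran from 24.9 to 40.1, Igfbp2 from 1.84 to 3.03, Igfbp4 from 7.08 to 16.2, Igfbp7 from 5.90 to 12.7, Igf1r from 1.49 to 2.29, Igf2r from 3.92 to 5.77, Igf1 from 11.7 to 113 and Igfbp3 from 181 to 547. The ranges of Igf1 and Igfbp3 rest on few brain molecules, 3 of each in the cells kept. The number of genes past the fold between the libraries was 1247, 741 with a minimum of 200 molecules and 2521 at a fold of 2. The number of member and set pairs past 2-fold in the brain was 4, 2 with 3 or more marker molecules and 13 by the mean over cells, which has no interval, and in the tail it was 24, from 20 in cells with 1 marker and none of another, and 22 with 1 or more marker molecules, to 36 by the mean over cells. Of these 28 pairs, 9 lost the call under at least 1 setting of the marker. For cells with 1 marker and none of another, cells of the set with a second marker were counted among the other cells. Likeness kept 13 of 21 pairs with 5 CPM added and 8 with the library mean subtracted. Leaving out barcodes found in both libraries was chosen after seeing the data. Depth limits the brain values of Igfbp3, Igfbp6 and Igf1, with 3, 0 and 3 molecules.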
